A study of Mus musculus with 17 samples.

Results

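Imprinted genes are the genes of which only the copy inherited from a given parent, the mother or the father, is transcribed in some or all tissues. The 45 imprinted genes described here were taken by their symbols from a list of genes known to be imprinted in the mouse. They were chosen with earlier results of these data known. All 45 were found among the 55359 genes of the deposited count table. They fall into 9 clusters that hold 35 of them, and the other 10 lie at loci of their own.

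RNA was sequenced from testes and forebrain of male mice at postnatal day 1 (P1). WT pups came from WT mothers. In contrast, Ocn+/- pups, with 1 active copy of osteocalcin (Ocn, the bone-derived hormone gene), and Ocn-/- pups, with none, both came from Ocn-/- mothers. The mice were of the Ocn GK strain on a 129/SvEv background, in which the gene was removed by homologous recombination, and there were 2 WT, 3 Ocn+/- and 3 Ocn-/- testes and 3 forebrains of each genotype. The brain tissue is hippocampus in the labels and forebrain, hippocampus included, in the study's text, and forebrain is the name used here. The genotype of the pup, the genotype of the mother and the litter change together between WT and mutant pups, so their parts in a difference cannot be told apart. The sources do not say that replicates came from separate litters, so p-values measure only the spread between these samples. The libraries do not separate the maternal from the paternal copy, so a level given here is the sum of both.

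Imprinted genes are best known for setting growth before and after birth, for the placenta and for behaviour: many growth promoters are transcribed from the father's copy and many growth restrainers from the mother's. A cluster is governed by a control region that carries DNA methylation on the copy from a given parent, and it usually holds a long non-coding RNA beside the protein-coding genes. After fertilization these marks are kept by the zinc finger protein ZFP57, which binds the methylated letters TGCCGC and brings in the co-repressor TRIM28.

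The letters that ZFP57 reads were searched near the starts of the imprinted genes. In windows of 250 bases before to 50 bases after the start of the canonical transcript (GRCm39), TGCCGC was found on either strand in 14 of the 45 imprinted genes (31.1%), against 11.7% of 21770 protein-coding starts and 8.79% of all 54654 starts of protein-coding genes and long non-coding RNAs. The imprinted windows were also richer in CG pairs, with a median of 15 per window against 11 in protein-coding windows. The letters were present at 6 of the 17 genes that were lower in at least 1 comparison of mutant with WT pups and at 8 of the other 28, a similar share, and a match of letters is not a measured binding site. The exon-free stretches before the starts of Peg10 (chr6:4747208-4747305, between the divergent starts of Sgce and Peg10), Nap1l5 (chr6:58884062-58884246, minus strand), Mest (chr6:30737794-30738043) and Meg3 (chr12:109506629-109506876) are shown because these genes fell in both mutant genotypes of an organ and hold the letters, which are in capitals. Each stretch is on the strand of its gene, where the letters read TGCCGC, or GCGGCA where they lie on the opposite strand:
Peg10: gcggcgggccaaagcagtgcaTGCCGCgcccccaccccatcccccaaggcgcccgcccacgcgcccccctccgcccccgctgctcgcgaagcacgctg
Nap1l5: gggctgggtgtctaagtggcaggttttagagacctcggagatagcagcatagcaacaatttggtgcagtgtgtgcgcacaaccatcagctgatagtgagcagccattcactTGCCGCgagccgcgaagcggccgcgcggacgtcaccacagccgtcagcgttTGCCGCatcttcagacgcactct
Mest: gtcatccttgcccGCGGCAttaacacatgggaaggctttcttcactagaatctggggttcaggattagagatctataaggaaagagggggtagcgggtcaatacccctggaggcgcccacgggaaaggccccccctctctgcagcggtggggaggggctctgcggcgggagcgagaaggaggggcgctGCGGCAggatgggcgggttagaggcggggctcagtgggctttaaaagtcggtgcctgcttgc
Meg3: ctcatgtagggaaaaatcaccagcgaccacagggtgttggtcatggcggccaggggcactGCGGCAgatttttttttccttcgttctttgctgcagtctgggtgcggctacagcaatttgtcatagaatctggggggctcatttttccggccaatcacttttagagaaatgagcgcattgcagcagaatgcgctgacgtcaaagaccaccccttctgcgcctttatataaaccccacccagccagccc

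H19 and Meg3, long non-coding RNAs that fell in Ocn-/- forebrain, also carry microRNAs within their exons. Their mature sequences (RefSeq, GRCm38.p6) are shown with the seed, bases 2 to 8, in capitals. No seed is shared among the 5, and the microRNAs themselves were not measured in these libraries:
mmu-miR-675-5p of H19: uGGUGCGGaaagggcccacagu
mmu-miR-675-3p of H19: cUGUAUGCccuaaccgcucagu
mmu-miR-770-5p of Meg3: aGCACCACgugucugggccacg
mmu-miR-770-3p of Meg3: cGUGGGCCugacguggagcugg
mmu-miR-1906 of Meg3: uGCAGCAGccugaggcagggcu

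The libraries held 7302401 to 8289015 counts in testes and 6518151 to 14621584 in forebrain. Levels are given as counts of a gene per 1000000 counts of its library (CPM, scaled by TMM within each organ), and a gene is called lower or higher where edgeR's quasi-likelihood test gave a Benjamini-Hochberg adjusted p under 0.05 over all genes of the organ. Bglap, an osteocalcin gene, had 0 to 2 counts per testis library and 0 to 5 per forebrain library. Bglap2 had 0 counts in every library, so neither gene could be used to check the genotype labels. Markers of Leydig, Sertoli and germ cells were found in all testes, and neuronal, forebrain and hippocampal markers in all forebrains, where hindbrain markers summed to at most 0.269 CPM. The third WT forebrain was the shallowest library and stood apart from the other WT forebrains, with a chi-square of 78.65 to 105.8 per degree of freedom over genes against 3.67 between those, and results that rest on it are also given without it. Under scaling by library size alone, which is not the scaling used here, the share of all called genes that were higher rose from 47.2% to 68.1% and from 45.1% to 65.2% in Ocn+/- and Ocn-/- testes, and from 31.0% to 47.7% and from 37.2% to 64.5% in forebrain, and the median of all genes in Ocn-/- forebrain moved from 0.01 to 0.11.

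In WT pups the imprinted genes formed different orders in the organs. Per kilobase of exon, the most abundant in WT testes were H19 (551 to 657 CPM per kilobase), Igf2, the fetal growth factor (203 to 255), Dlk1, a Notch ligand relative (135 to 166), Plagl1, a zinc finger transcription factor (110.4 to 119), and Gnas, the stimulatory G protein subunit (100.2 to 110.2). Neighbours in this order did not overlap, but Plagl1 and Gnas were almost in contact, and each range rests on 2 libraries. In WT forebrain the order began with Nnat, a small membrane proteolipid of neurons (481 to 512 CPM per kilobase), followed by Gnas (113 to 123) and Ndn, a neuronal growth suppressor (114 to 123), whose ranges overlapped, then Peg13, a long non-coding RNA (75.5 to 88.9), and Igf2 (70.4 to 87.4), which overlapped too. The order depends on the length used. Per kilobase of the longest transcript, Gnas in WT testes (284 to 312) lay within the range of Igf2 (264 to 332) and above Dlk1 (175 to 215) and Plagl1 (146 to 157). In WT forebrain Rian (145 to 155) then came after Nnat and Gnas and above Ndn (117 to 126). At the bottom, Phlda2 and Ascl2, regulators of placental growth, had at most 12 and 15 counts per testis and 2 and 5 per forebrain, too few to be tested in either organ. Calcr, the calcitonin receptor, and Kcnk9, a potassium channel, had at most 5 and 13 per testis and were compared with WT in mutant forebrain only.

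A fit over all 17 libraries tested the difference between WT forebrain and WT testes. Of the 41 imprinted genes tested in both organs, 17 were called higher and 18 lower in forebrain (41.5% and 43.9%), where 34.8% and 35.5% of all 14590 genes tested in both organs were. Over all genes of the joint fit, the shares were 71.1% called, 34.2% higher and 36.9% lower, with 37 of 44 imprinted genes called. Of these imprinted genes, that with the largest log2 difference (forebrain minus testes) toward forebrain was Nnat (5.05 ± 0.14, SE). Kcnk9 (7 to 9 counts in WT testes and 242 to 677 in WT forebrain) and Calcr (0 to 2 and 18 to 30) had too few counts in testes to be tested there and entered the joint fit through forebrain, where they are high, so their differences are a description only. The largest toward testes were those of Dlk1 (-5.97 ± 0.36), Slc38a4, an amino acid transporter (-3.86 ± 0.30), and H19 (-3.62 ± 0.26). Genes of the same cluster could lie on opposite sides: in the Peg10-Sgce cluster, Ppp1r9a, which encodes the neuronal actin-binding protein neurabin, was higher in forebrain by 0.81 ± 0.12, whereas Sgce, epsilon-sarcoglycan, was at -1.58 ± 0.13 and Peg10 at -1.06 ± 0.27. Zfp57 was higher in forebrain, by 1.61 ± 0.14 (edgeR adjusted p = 1.36e-10).

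**Figure D1:**
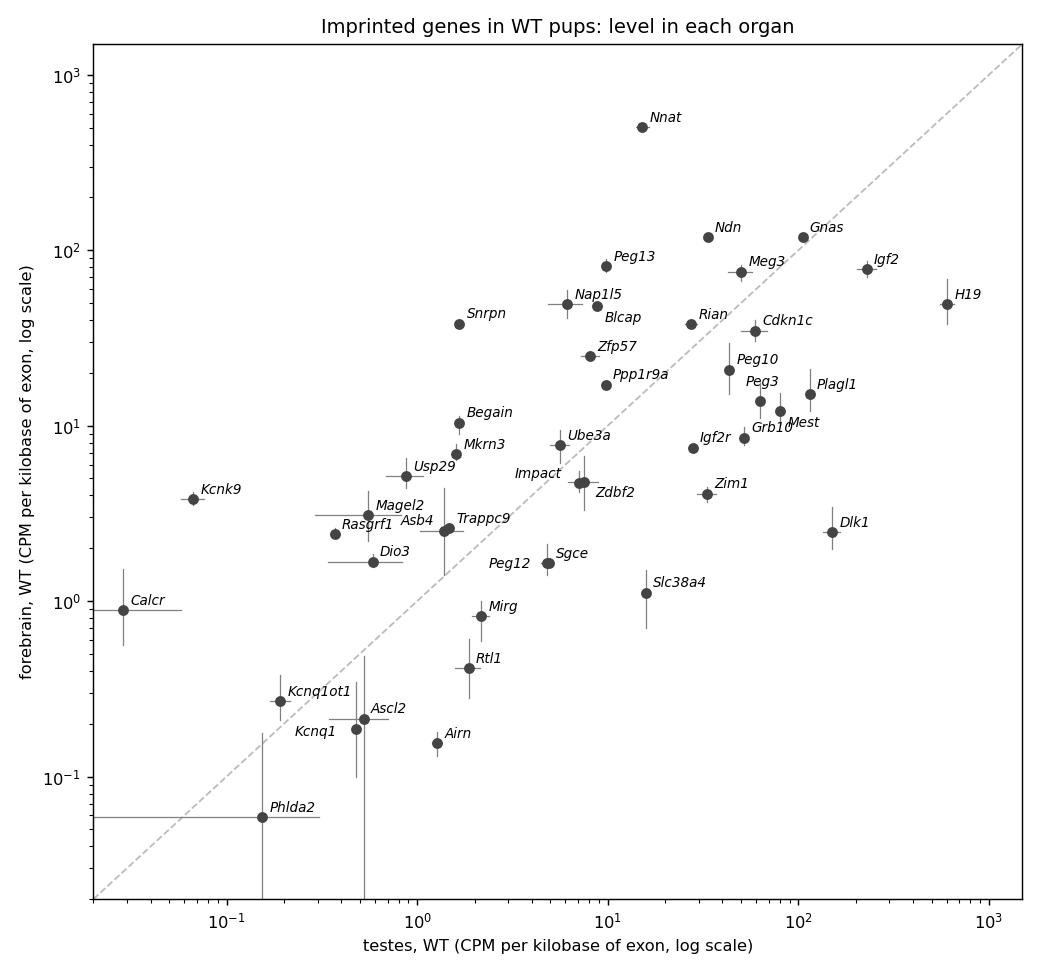
Level of each imprinted gene in WT testes (x axis) and WT forebrain (y axis), in CPM per kilobase of exon on log axes, with points at the mean and bars from the lowest to the highest library. Nnat, Kcnk9 and Snrpn lie above the dashed line of equal level, and H19, Dlk1 and Slc38a4 below it.

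In mutant pups every imprinted gene that was called against WT was lower, in both organs, although Begain was called higher in Ocn+/- testes under scaling by library size alone and some other alternatives, and Rasgrf1 higher in forebrain without a filter on low counts, with only the compared groups fitted (Ocn+/-) and without the first Ocn-/- library (Ocn-/-). In testes, 6 of the 41 imprinted genes tested were lower in Ocn+/- pups (4.36% of all genes were called lower and 3.89% higher) and 11 in Ocn-/- pups (3.09% lower and 2.54% higher of all genes). The 6 of Ocn+/- testes, Rian, Peg10, Mest, Nap1l5, Zdbf2 and Zfp57, were all among the 11, so 6 of 41 were lower in both genotypes, where 1.94% of all genes were. Without the second WT testis the testis counts were 3 and 3, and without the first 4 and 5. The number lower in Ocn+/- testes was 10 without the second Ocn+/- library, and that in Ocn-/- testes 7 without the first Ocn-/- library. In forebrain, 4 of 43 were lower in Ocn+/- pups (2.68% lower and 1.21% higher of all genes) and 8 in Ocn-/- pups (3.05% and 1.8%), with Cdkn1c, Meg3 and Zfp57 in both, where 1.76% of all genes were lower in both. Without the third WT forebrain, 4 and 5 were called, where 0.907% and 0.901% of all genes were lower. The number lower in Ocn-/- forebrain was also 3 to 5 when any single Ocn-/- library or the second Ocn+/- library was left out. For the testis refits and these last forebrain refits, the shares of all genes called are not given here. Their counts therefore have no background beside them. The comparisons of the 2 mutant genotypes share their WT libraries, so their calls are not independent. The libraries are of whole organs, in which fewer cells of a type that uses a gene and less of its RNA per cell cannot be told apart.

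The whole set leaned the same way. It was chosen with earlier results of these data known, so this is a description only. In testes the imprinted genes had a median log2 change from WT of -0.26 (Ocn+/-, 31 of 41 below 0) and -0.43 (Ocn-/-, 34 of 41), beside 0.01 and -0.01 for all genes tested. In forebrain it was -0.16 (29 of 43) and -0.24 (36 of 43), beside 0.01 and 0.01, and -0.09 and -0.14 without the third WT library. Under scaling by library size alone the medians stayed below 0, at -0.18 and -0.35 in testes and -0.11 and -0.13 in forebrain. Every mutant testis was below both WT testes for 13 imprinted genes (31.7%, against 13.6% of all genes), and above them for Mkrn3 and Nnat. In forebrain the same held for 9 (20.9%, against 8.57%), and Trappc9 lay above WT in every mutant. Of the calls, those of Nap1l5, Zdbf2 and Peg10 in Ocn+/- testes, of Zdbf2 in Ocn-/- testes and of Cdkn1c, Meg3 and Zfp57 in both forebrain comparisons held when any single library was left out.

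**Figure D2:**
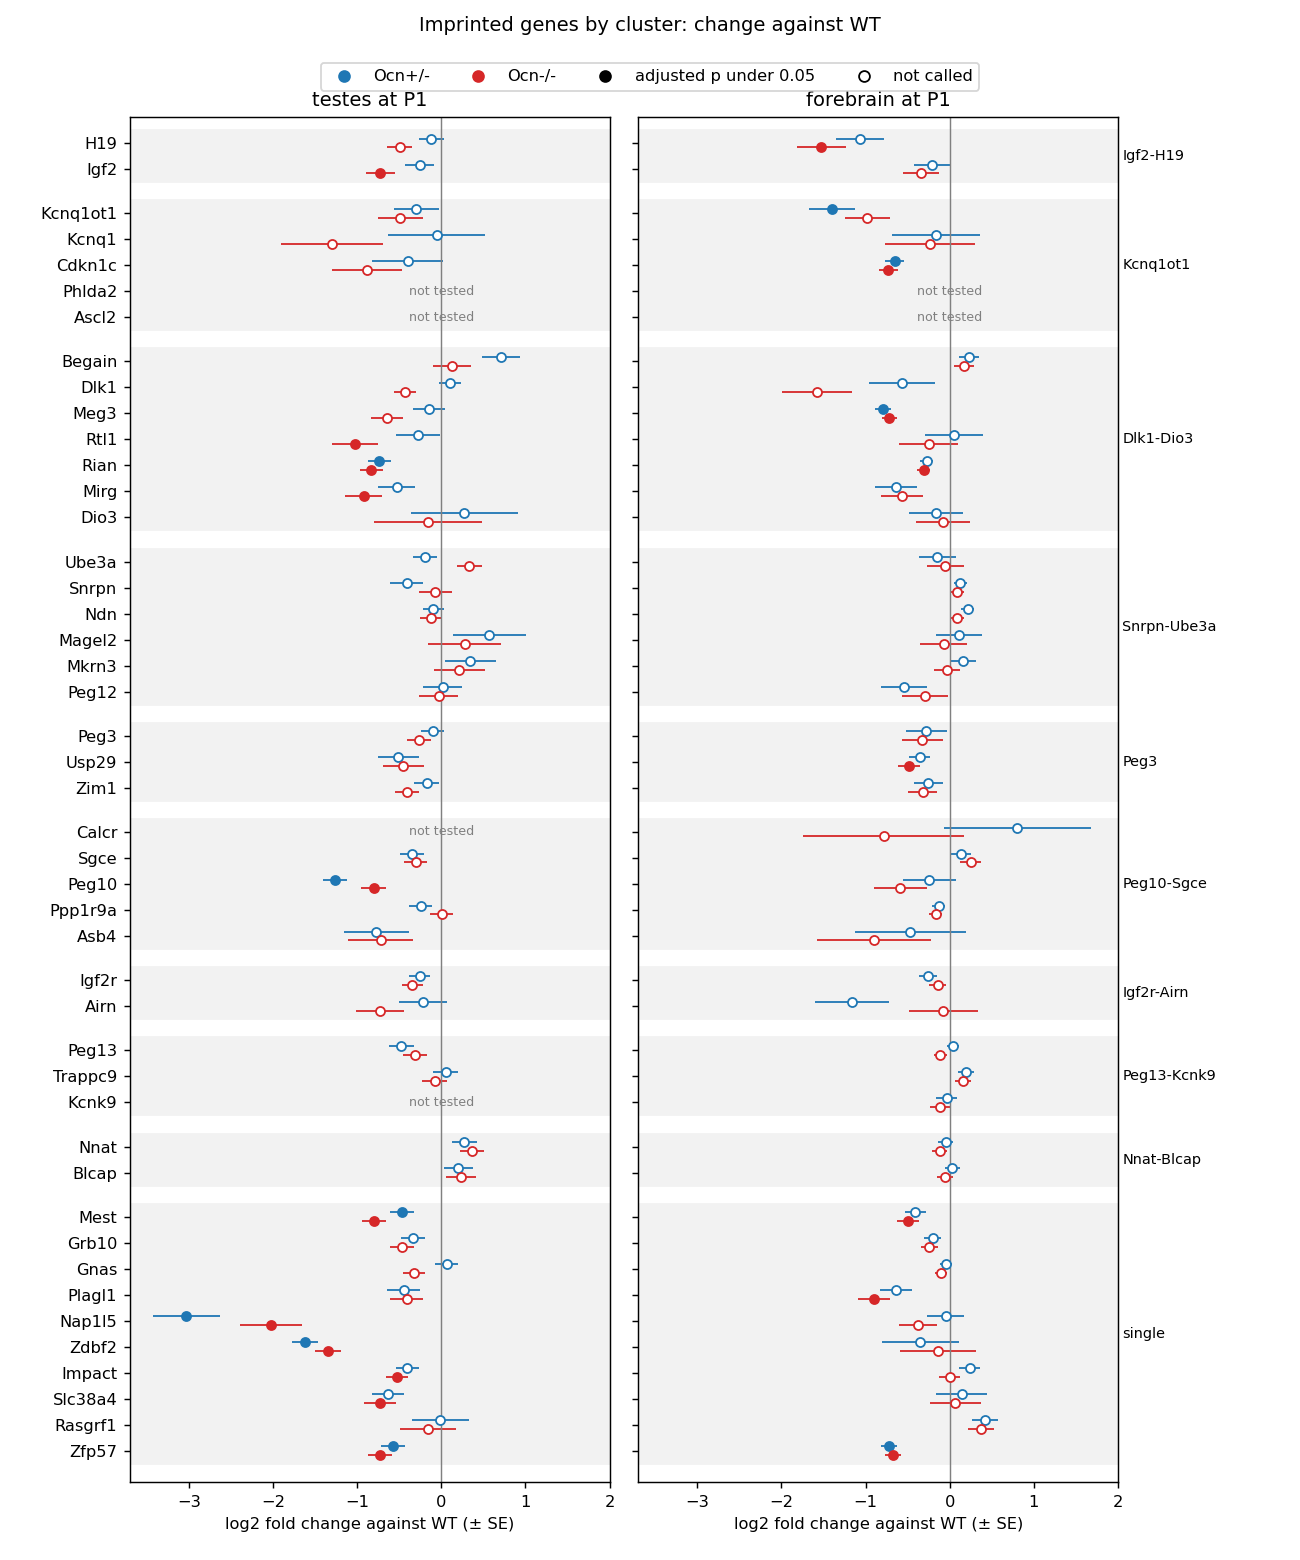
Log2 fold change against WT (x axis, bars ± SE) of each imprinted gene in testes (left) and forebrain (right), grouped by cluster, with Ocn+/- in blue, Ocn-/- in red and filled points for an edgeR adjusted p under 0.05. All filled points lie below 0, and those farthest from it are Nap1l5 and Zdbf2 in testes, at -3.03 and -1.62 in Ocn+/-.

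Zfp57, which encodes the keeper of imprints and is itself counted among the imprinted genes, was lower in both mutant genotypes of both organs. In testes it was at 74.6 and 92.9 CPM in the WT libraries, 54.5, 64.1 and 50.5 CPM in Ocn+/- and 52.9, 52.4 and 46.1 CPM in Ocn-/-. All 6 mutant testes were below both WT testes. Fold changes on the log2 scale were -0.57 ± 0.14 in Ocn+/- (adjusted p = 0.0256) and -0.73 ± 0.14 in Ocn-/- (adjusted p = 0.00816). In forebrain it was at 199.6, 197 and 220.4 CPM in the WT libraries, 120.3, 115 and 139.7 CPM in Ocn+/- and 146, 115 and 124 CPM in Ocn-/-. The mutant forebrains again lay wholly below the WT forebrains, and Ocn+/- and Ocn-/- overlapped. There the changes were -0.72 ± 0.10 in Ocn+/- (adjusted p = 0.000342) and -0.68 ± 0.10 in Ocn-/- (adjusted p = 0.000549), a 1.64-fold and 1.6-fold lower level. Over all genes tested in both organs, 50 of 14590 (0.343%) were called lower in these 4 comparisons, and Zfp57 was the only imprinted gene among them. A difference between the organs in the change of Zfp57 was not detected (forebrain minus testes -0.03, 95% interval -0.35 to 0.29). In testes the Ocn+/- call was lost without the first or the third Ocn+/- library and without either WT library (adjusted p = 0.0776 and 0.348) and the Ocn-/- call without the second WT library (adjusted p = 0.273). Of the exon bases of Zfp57 (chr17:37298936-37326192), 17.5% are shared with genes on the other strand, mainly Mog, the oligodendrocyte glycoprotein gene, which had 0 to 3 counts per testis library and 26 to 58 per forebrain library, against at least 1239 for Zfp57 in forebrain.

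In testes the steepest falls were at genes with loci of their own. Nap1l5, a retrotransposed gene of the nucleosome assembly protein family that lies within Herc3 (chr6:58882218-58884061), was at 15.3 and 10.1 CPM in the WT libraries, 0.664, 1.89 and 2.06 CPM in Ocn+/- and 2.85, 3.95 and 2.53 CPM in Ocn-/-. Both WT testes were far above every mutant testis, and Ocn+/- lay below Ocn-/- without overlap. Its log2 fold changes were -3.03 ± 0.40 in Ocn+/- (adjusted p = 0.000474) and -2.03 ± 0.37 in Ocn-/- (adjusted p = 0.00553), or 8.16-fold and 4.07-fold lower. These are small counts, 80 to 118 per WT library and 5 to 31 per mutant library. The host gene Herc3 was at 0.11 ± 0.16 (adjusted p = 0.713) and 0.15 ± 0.16 (adjusted p = 0.604). Without the first WT library, the Ocn-/- call of Nap1l5 was lost (adjusted p = 0.0992), and a filter of 10 counts in every library leaves the gene out.

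Zdbf2, a zinc finger gene transcribed from the father's copy (chr1:63312363-63353735), was at 127 and 88.7 CPM in the WT libraries, 38.8, 33.2 and 33.3 CPM in Ocn+/- and 42.8, 43.2 and 41.6 CPM in Ocn-/-. The mutant libraries formed a narrow band well below the WT libraries, and Ocn+/- was below Ocn-/- in each library. Against WT the log2 changes were -1.62 ± 0.15 in Ocn+/- (adjusted p = 1.2e-05) and -1.34 ± 0.15 in Ocn-/- (adjusted p = 8.83e-05), the smallest adjusted p of the imprinted genes in each of these comparisons. Its neighbour Adam23, which encodes a cell adhesion protein, was at -0.12 ± 0.15 (adjusted p = 0.652) and -0.27 ± 0.15 (adjusted p = 0.305). Mest, which encodes a hydrolase-like protein of growing mesoderm (chr6:30723546-30752058), was at 704 and 759 CPM in the WT libraries, 448, 591 and 549.5 CPM in Ocn+/- and 479, 411 and 369.9 CPM in Ocn-/-. All mutants lay below WT, Ocn-/- overlapping with Ocn+/-. On the log2 scale the differences from WT were -0.47 ± 0.14 in Ocn+/- (adjusted p = 0.0493) and -0.80 ± 0.14 in Ocn-/- (adjusted p = 0.00362). The Ocn+/- call sat at the threshold and was lost in 8 of the alternatives, and both calls were lost without the second WT library (adjusted p = 0.342 and 0.115). Copg2, a coat protein gene that shares 47.7% of the exon bases of Mest on the other strand, was at -0.24 ± 0.11 (adjusted p = 0.2) and -0.12 ± 0.11 (adjusted p = 0.577).

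Impact, a regulator of translation, and Slc38a4 (chr15:96892693-96958593) were called lower in Ocn-/- testes. Impact was at 68 and 70.2 CPM in the WT libraries, 48.2, 58.7 and 49.6 CPM in Ocn+/- and 46, 49.4 and 48.5 CPM in Ocn-/-, with log2 fold changes of -0.40 ± 0.13 in Ocn+/- (adjusted p = 0.0687) and -0.53 ± 0.13 in Ocn-/- (adjusted p = 0.0305). Slc38a4 was at 108 and 112 CPM in the WT libraries, 55.4, 94.5 and 62.3 CPM in Ocn+/- and 69.4, 72.1 and 57.4 CPM in Ocn-/-, with -0.63 ± 0.19 in Ocn+/- (adjusted p = 0.0542) and -0.73 ± 0.19 in Ocn-/- (adjusted p = 0.0408). For both genes every mutant testis was below both WT testes, and both calls were lost without either WT library, without the first or the third Ocn-/- library and under scaling by library size alone. Of the other genes with loci of their own, Grb10, an adaptor that restrains insulin receptor signalling, lay below WT in all mutant testes (588 to 614 CPM in WT, 425 to 499 CPM in Ocn+/- and 351 to 506 CPM in Ocn-/-) without being called (-0.34 ± 0.14, adjusted p = 0.144, in Ocn+/- and -0.46 ± 0.14, adjusted p = 0.0666, in Ocn-/-). Plagl1 was at -0.45 ± 0.20 in Ocn+/- (adjusted p = 0.173) and -0.41 ± 0.20 in Ocn-/- (adjusted p = 0.238), Gnas at 0.06 ± 0.13 and -0.33 ± 0.13 and Rasgrf1, a Ras exchange factor, at -0.01 ± 0.34 and -0.16 ± 0.34, none of them called.

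The Dlk1-Dio3 cluster on chromosome 12 holds protein-coding genes of the father's copy (Dlk1, Rtl1 and Dio3) and long non-coding RNAs of the mother's copy (Meg3, Rian and Mirg). Rian, the host of small nucleolar RNAs (chr12:109570242-109628150), was at 918 and 1049.8 CPM in the WT libraries, 509, 705 and 558 CPM in Ocn+/- and 567, 559 and 534 CPM in Ocn-/-. The mutants lay wholly below WT and overlapped with each other. The log2 fold changes were -0.74 ± 0.14 in Ocn+/- (adjusted p = 0.00542) and -0.83 ± 0.14 in Ocn-/- (adjusted p = 0.00245). Both calls were lost without the second WT library (adjusted p = 0.135 and 0.114). Mirg, a microRNA host (chr12:109696198-109715898), was at 21.1 and 25.9 CPM in the WT libraries, 16.5, 19.3 and 12.9 CPM in Ocn+/- and 12.9, 10.2 and 14 CPM in Ocn-/-. Every mutant was below WT, and it was called in Ocn-/- testes only (-0.53 ± 0.22, adjusted p = 0.134, in Ocn+/- and -0.92 ± 0.22, adjusted p = 0.0228, in Ocn-/-). Rtl1, a retrotransposon-derived gene needed for placental vessels, was at 12.2 and 16.4 CPM in the WT libraries, 12.5, 14.5 and 8.25 CPM in Ocn+/- and 8.06, 6.75 and 6.19 CPM in Ocn-/-. Here Ocn+/- overlapped with WT and Ocn-/- did not (-0.28 ± 0.26, adjusted p = 0.535, in Ocn+/- and -1.03 ± 0.27, adjusted p = 0.0345, in Ocn-/-). Both calls were lost without either WT library, that of Rtl1 without any single Ocn-/- library and that of Mirg without the first.

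The remaining genes of that cluster were not called in testes. Meg3 was at 932 to 1239 CPM in WT, 795 to 1217 CPM in Ocn+/- and 564 to 782 CPM in Ocn-/-, with log2 fold changes of -0.15 ± 0.19 in Ocn+/- (adjusted p = 0.672) and -0.65 ± 0.19 in Ocn-/- (adjusted p = 0.0658). Dlk1 was at 0.10 ± 0.13 in Ocn+/- (adjusted p = 0.674) and -0.43 ± 0.13 in Ocn-/- (adjusted p = 0.0677) and Dio3, the enzyme that inactivates thyroid hormone, at 0.27 ± 0.64 and -0.16 ± 0.65. Begain, a postsynaptic protein gene at the edge of the cluster, had the highest log2 fold change of the imprinted genes in Ocn+/- testes without being called (0.71 ± 0.22, adjusted p = 0.056, in Ocn+/- and 0.13 ± 0.22, adjusted p = 0.774, in Ocn-/-).

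In the Peg10-Sgce cluster on chromosome 6, Peg10 and Sgce are transcribed in opposite directions from starts on either side of the Peg10 stretch shown above. Peg10, a retrotransposon-derived gene required for the placenta (chr6:4747306-4760517), was at 342 and 307 CPM in the WT libraries, 151, 123 and 131 CPM in Ocn+/- and 153, 216 and 188 CPM in Ocn-/-. The mutants were far below WT, with Ocn-/- slightly above Ocn+/- throughout. Fold changes on the log2 scale were -1.26 ± 0.14 in Ocn+/- (adjusted p = 9.47e-05) and -0.81 ± 0.14 in Ocn-/- (adjusted p = 0.00435), 2.4-fold and 1.75-fold lower. Without the first WT library the Ocn-/- call was lost (adjusted p = 0.0642). Sgce was at 79.7 and 71.3 CPM in the WT libraries, 53.9, 61.8 and 62.2 CPM in Ocn+/- and 62.6, 67.8 and 52.8 CPM in Ocn-/-. All mutants were also below WT, by less, and it was not called (-0.35 ± 0.14, adjusted p = 0.125, in Ocn+/- and -0.31 ± 0.14, adjusted p = 0.2, in Ocn-/-). The difference between the changes of Peg10 and Sgce was not tested. Ppp1r9a was at -0.25 ± 0.14 and 0.00 ± 0.14 and Asb4, a ubiquitin ligase adaptor, at -0.77 ± 0.39 and -0.72 ± 0.39, neither called.

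At the Igf2-H19 locus on chromosome 7, Igf2 was called in Ocn-/- testes and H19 in neither genotype. Igf2 (chr7:142204503-142220694) was at 1408 and 1765 CPM in the WT libraries, 1164, 1407 and 1412 CPM in Ocn+/- and 1072, 1085 and 723 CPM in Ocn-/-. Ocn-/- testes lay below both WT testes, whereas Ocn+/- testes overlapped with them. Against WT the log2 changes were -0.26 ± 0.17 in Ocn+/- (adjusted p = 0.362) and -0.72 ± 0.17 in Ocn-/- (adjusted p = 0.0239), and the Ocn-/- call was lost without the second WT library (adjusted p = 0.365). Gm49394, which shares 58.4% of the exon bases of Igf2 on its strand, had at most 9.44 counts. H19 was at 1769 and 2101 CPM in the WT libraries, 1547, 2001 and 1797 CPM in Ocn+/- and 1567, 1377 and 1169.5 CPM in Ocn-/-, with log2 fold changes of -0.12 ± 0.15 in Ocn+/- (adjusted p = 0.649) and -0.50 ± 0.15 in Ocn-/- (adjusted p = 0.0554). In the Kcnq1ot1 cluster beside it, Cdkn1c, a cyclin-dependent kinase inhibitor that restrains growth, was at -0.40 ± 0.42 in Ocn+/- (adjusted p = 0.605) and -0.88 ± 0.42 in Ocn-/- (adjusted p = 0.281). Kcnq1ot1, the RNA that silences the cluster, was at -0.30 ± 0.27 and -0.49 ± 0.27 and Kcnq1, a potassium channel, at -0.06 ± 0.58 and -1.30 ± 0.61. None of Cdkn1c, Kcnq1ot1 and Kcnq1 was called.

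Further clusters with no call in testes were those of Snrpn-Ube3a, Peg3, Igf2r-Airn, Peg13-Kcnk9 and Nnat-Blcap. In the Snrpn-Ube3a cluster, whose loss in people gives the Prader-Willi and Angelman syndromes, 3 of 6 genes had a log2 fold change below 0 in each genotype, with a median of -0.04 and 0.09. Its members were the splicing gene Snrpn (-0.41 ± 0.20 and -0.07 ± 0.20), the ubiquitin ligases Ube3a (-0.19 ± 0.15 and 0.33 ± 0.15) and Mkrn3 (0.34 ± 0.30 and 0.21 ± 0.30), Ndn (-0.10 ± 0.13 and -0.12 ± 0.13), the MAGE family gene Magel2 (0.57 ± 0.43 and 0.28 ± 0.43) and Peg12 (0.02 ± 0.23 and -0.03 ± 0.23). In the Peg3 cluster the zinc finger genes Peg3 (-0.10 ± 0.14 and -0.26 ± 0.14) and Zim1 (-0.17 ± 0.15 and -0.41 ± 0.15) and the deubiquitinase gene Usp29 (-0.51 ± 0.25 and -0.45 ± 0.24) were all below 0. Igf2r, the receptor that clears Igf2, was below WT in every mutant testis (282 to 307 CPM in WT, 234 to 270.2 CPM in Ocn+/- and 205 to 252 CPM in Ocn-/-) at -0.26 ± 0.13 in Ocn+/- (adjusted p = 0.21) and -0.35 ± 0.13 in Ocn-/- (adjusted p = 0.11), and Airn, the RNA that silences it, was at -0.22 ± 0.28 and -0.73 ± 0.29. Peg13 was also below WT in every mutant (50.9 to 53.4 CPM in WT, 34 to 40 CPM in Ocn+/- and 39.3 to 46.6 CPM in Ocn-/-) at -0.47 ± 0.14 in Ocn+/- (adjusted p = 0.0517) and -0.31 ± 0.14 in Ocn-/- (adjusted p = 0.204), while Trappc9, a vesicle transport gene that surrounds it, was at 0.05 ± 0.15 and -0.08 ± 0.15. Nnat (0.27 ± 0.15 and 0.37 ± 0.15) and Blcap (0.20 ± 0.17 and 0.24 ± 0.17), a gene in which Nnat lies, were above 0 in both genotypes.

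**Figure D3:**
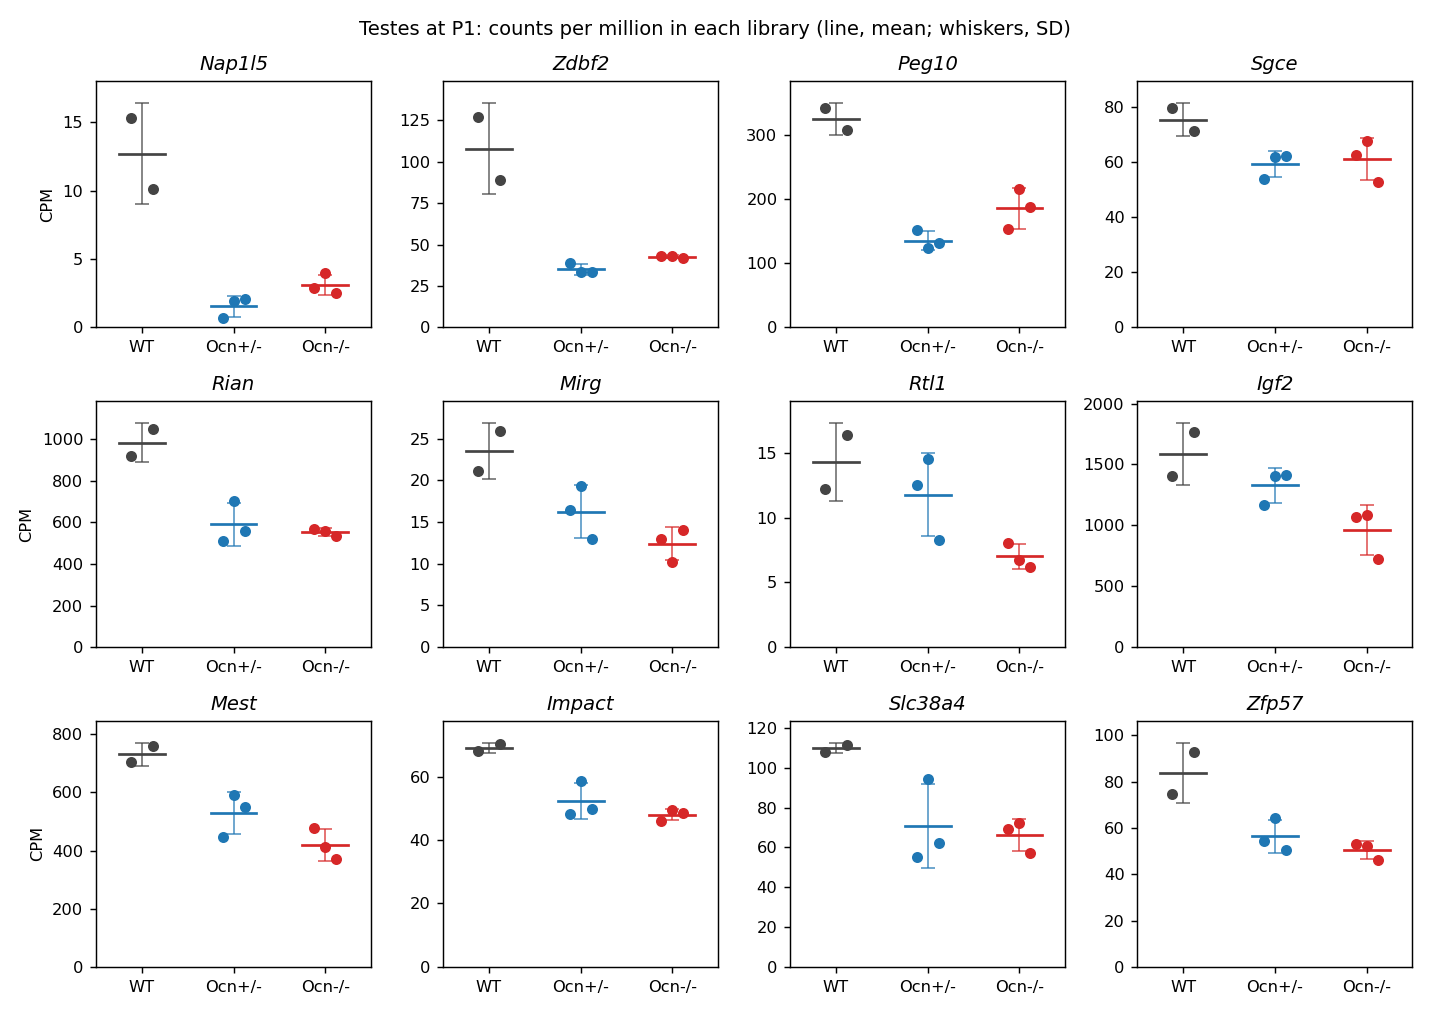
CPM (y axis, from 0) in each testis library for the 11 imprinted genes called in testes and for Sgce, by genotype (x axis), with lines at the mean and whiskers of 1 SD. Nap1l5, Zdbf2 and Peg10 show WT libraries far above all mutants, whereas Rtl1 and Igf2 overlap between WT and Ocn+/-.

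Summed levels of several marker lists differed between mutant and WT testes, and of all genes 4.36% and 3.09% were called lower in Ocn+/- and Ocn-/-. The summed level of 6 endothelial markers was 539 to 549 CPM in WT, 353 to 414 CPM in Ocn+/- and 328 to 359.5 CPM in Ocn-/-, and 3 of 6 were called lower in Ocn+/- and 4 in Ocn-/-. The 4 pericyte markers summed to 327 to 397 CPM in WT, 227 to 272 CPM in Ocn+/- and 182 to 228 CPM in Ocn-/-, with 1 and 3 called lower. The 7 Leydig cell markers summed to 1873 to 1985 CPM in WT, 910.3 to 1472 CPM in Ocn+/- and 928 to 1368 CPM in Ocn-/-, with Lhcgr, the luteinizing hormone receptor, called lower in both genotypes. The 7 Sertoli cell markers summed to 1020.0 to 1145 CPM in WT, 1032 to 1299 CPM in Ocn+/- and 1163 to 1584 CPM in Ocn-/-, so that Ocn-/- lay above WT. Their medians were 0.02 and 0.38, with 6 of 7 above 0 in Ocn-/-, and Sox9, a transcription factor of Sertoli cells, was called higher in both genotypes. The 7 markers of prospermatogonia summed to 264 to 305 CPM in WT, 251 to 272 CPM in Ocn+/- and 246 to 288 CPM in Ocn-/- and overlapped. The 7 erythroid markers, with a wide range within WT, summed to 2600.0 to 6865 CPM in WT, 865 to 3943 CPM in Ocn+/- and 1316 to 2517 CPM in Ocn-/-, and the 6 tested had medians of -1.05 and -1.45 with 0 called. The 6 peritubular and smooth muscle markers summed to 915 to 1132 CPM in WT, 780.1 to 991 CPM in Ocn+/- and 665 to 887 CPM in Ocn-/-, with 0 called, and Ocn-/- below WT. The 7 fibroblast markers summed to 7014 to 8555 CPM in WT, 7737 to 9052 CPM in Ocn+/- and 5128 to 7716 CPM in Ocn-/-, with medians of -0.34 and -0.35 and Pdgfra called lower in Ocn+/-. The 6 macrophage markers summed to 96.5 to 106 CPM in WT, 102 to 135 CPM in Ocn+/- and 52.4 to 97.7 CPM in Ocn-/-, with Cx3cr1 called higher in Ocn+/-. The 5 markers of epididymis and mesonephric duct summed to 44.7 to 66.9 CPM in WT, 55.4 to 66.2 CPM in Ocn+/- and 51.8, 50.3 and 10.7 CPM in Ocn-/-, with Pax2 called higher in Ocn+/-. The third Ocn-/- testis was thus far below the other two, and it was also the lowest of its group for Igf2, Cdkn1c, Kcnq1ot1 and Kcnq1. Without it Igf2 was at -0.56 in Ocn-/- (adjusted p = 0.0433). Adipocyte markers (5) summed to 23.1 to 24.9 CPM in WT, 19.3 to 25.9 in Ocn+/- and 21.3 to 26.4 in Ocn-/- and overlapped. Of the 2 tested, Fabp4 was called lower in both genotypes and 1 was above 0 in both. Skeletal muscle markers (6) summed to 8.29 to 9.21 CPM in WT, 10.9 to 16 in Ocn+/- and 9.73 to 12.9 in Ocn-/-. All 3 tested were above 0 in both genotypes, with Actn2 called higher in Ocn+/-. Lep, an adipocyte marker, was the only marker of these 12 lists at 0 in all testes. The part of cell composition in the falls of the imprinted genes was not tested.

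In forebrain, apart from Zfp57, the falls that stood in both genotypes were those of the growth restrainer Cdkn1c and the long non-coding RNA Meg3. Meg3 (chr12:109506877-109538165) was at 1425, 1176 and 1336 CPM in the WT libraries, 723, 694 and 852 CPM in Ocn+/- and 858, 763 and 773 CPM in Ocn-/-. The highest mutant was well below the lowest WT library. On the log2 scale the differences from WT were -0.79 ± 0.09 in Ocn+/- (adjusted p = 5.62e-05) and -0.72 ± 0.09 in Ocn-/- (adjusted p = 0.000223), 1.73-fold and 1.64-fold lower. Its cluster partner Rian was at 1091, 1061 and 1126 CPM in the WT libraries, 856, 966 and 893 CPM in Ocn+/- and 821, 959 and 864 CPM in Ocn-/-. The mutants were again wholly below WT, by less, and the gene was called in Ocn-/- only (-0.27 ± 0.08, adjusted p = 0.0575, in Ocn+/- and -0.31 ± 0.08, adjusted p = 0.0286, in Ocn-/-). Leaving out any WT forebrain, or the first or the third Ocn-/- forebrain, ended that call (adjusted p = 0.0976 without the third). Mirg was at -0.64 ± 0.25 in Ocn+/- (adjusted p = 0.152) and -0.57 ± 0.25 in Ocn-/- (adjusted p = 0.188), not called. Of the protein-coding genes of the cluster, Dlk1 was at 10.8 to 18.5 CPM in WT, 4.37 to 14.7 CPM in Ocn+/- and 3.99 to 4.89 CPM in Ocn-/-, with log2 fold changes of -0.57 ± 0.39 in Ocn+/- (adjusted p = 0.454) and -1.58 ± 0.42 in Ocn-/- (adjusted p = 0.0621). Rtl1 was at 0.05 ± 0.34 and -0.25 ± 0.35, Dio3 at -0.16 ± 0.32 and -0.08 ± 0.32 and Begain at 0.23 ± 0.12 and 0.17 ± 0.12.

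Cdkn1c (chr7:143012069-143014806) was at 59.3, 66.4 and 77 CPM in the WT libraries, 46.3, 37.8 and 43.7 CPM in Ocn+/- and 41.8, 37.9 and 41.8 CPM in Ocn-/-. All 6 mutants were below all WT forebrains. The log2 fold changes were -0.66 ± 0.11 in Ocn+/- (adjusted p = 0.00265) and -0.73 ± 0.11 in Ocn-/- (adjusted p = 0.00109), and without the third WT forebrain they were -0.55 and -0.63 with both calls kept. Kcnq1ot1, which silences Cdkn1c on the father's copy (chr7:142731402-142850327), was at 17.7, 18.3 and 32 CPM in the WT libraries, 8.59, 7.9 and 8.67 CPM in Ocn+/- and 13.5, 13.4 and 6.77 CPM in Ocn-/-. The third WT library was the highest and the mutants lay below all WT libraries. It was called in Ocn+/- only (-1.40 ± 0.27, adjusted p = 0.016, in Ocn+/- and -0.98 ± 0.27, adjusted p = 0.0556, in Ocn-/-). Without the third WT forebrain the change in Ocn+/- was -1.10 (adjusted p = 0.0338), and without any single Ocn+/- library the call was lost. Kcnq1 was at -0.16 ± 0.53 and -0.24 ± 0.53.

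H19 was at 107, 98.1 and 175 CPM in the WT libraries, 60.3, 54.6 and 64.6 CPM in Ocn+/- and 30.7, 43.7 and 56.2 CPM in Ocn-/- in forebrain. The third WT library was again the highest, and all mutants lay below the WT libraries. It was called in Ocn-/- only (-1.07 ± 0.28, adjusted p = 0.0955, in Ocn+/- and -1.53 ± 0.29, adjusted p = 0.0363, in Ocn-/-), and without the third WT library the change was -1.23 (adjusted p = 0.0198). The call was lost without the first WT library (adjusted p = 0.0513), without the first or second Ocn-/- library and without any single Ocn+/- library. Igf2, the other gene of the locus, was at 419, 394 and 483 CPM in the WT libraries, 389, 327 and 407 CPM in Ocn+/- and 259, 304 and 459 CPM in Ocn-/-. WT and both mutant groups overlapped, and it was not called (-0.21 ± 0.21, adjusted p = 0.641, in Ocn+/- and -0.34 ± 0.21, adjusted p = 0.404, in Ocn-/-). Thus Igf2 was called in testes and H19 in forebrain, and the difference between the genes of the pair was not tested.

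Plagl1 was at 93.6, 94.9 and 162 CPM in the WT libraries, 76, 76.8 and 70 CPM in Ocn+/- and 57, 67.4 and 61.5 CPM in Ocn-/-. Again the third WT library was the highest, and Ocn-/- lay below Ocn+/- and Ocn+/- below WT without overlap. It was called in Ocn-/- (-0.64 ± 0.19, adjusted p = 0.0955, in Ocn+/- and -0.90 ± 0.19, adjusted p = 0.0304, in Ocn-/-), at -0.60 without the third WT library (adjusted p = 0.00514). The call was lost when any Ocn-/- or Ocn+/- library was left out. Mest was at 79.5, 74 and 111 CPM in the WT libraries, 63.5, 62.6 and 71.6 CPM in Ocn+/- and 60.4, 68.1 and 58 CPM in Ocn-/-. All mutants lay below WT, the highest of them close to the second WT library. It was called in Ocn-/- (-0.41 ± 0.13, adjusted p = 0.0798, in Ocn+/- and -0.49 ± 0.13, adjusted p = 0.036, in Ocn-/-) and not without the third WT library (-0.30, adjusted p = 0.159). Usp29, a deubiquitinase family gene of the Peg3 cluster, was at 73.7, 72.1 and 106 CPM in the WT libraries, 66.8, 67.3 and 61.2 CPM in Ocn+/- and 57, 66.2 and 55.2 CPM in Ocn-/-. The mutants lay below WT, and it too was called in Ocn-/- (-0.35 ± 0.13, adjusted p = 0.121, in Ocn+/- and -0.48 ± 0.13, adjusted p = 0.0377, in Ocn-/-) and not without the third WT library (-0.29, adjusted p = 0.178). Both of these calls were also lost without some of the mutant libraries.

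**Figure D4:**
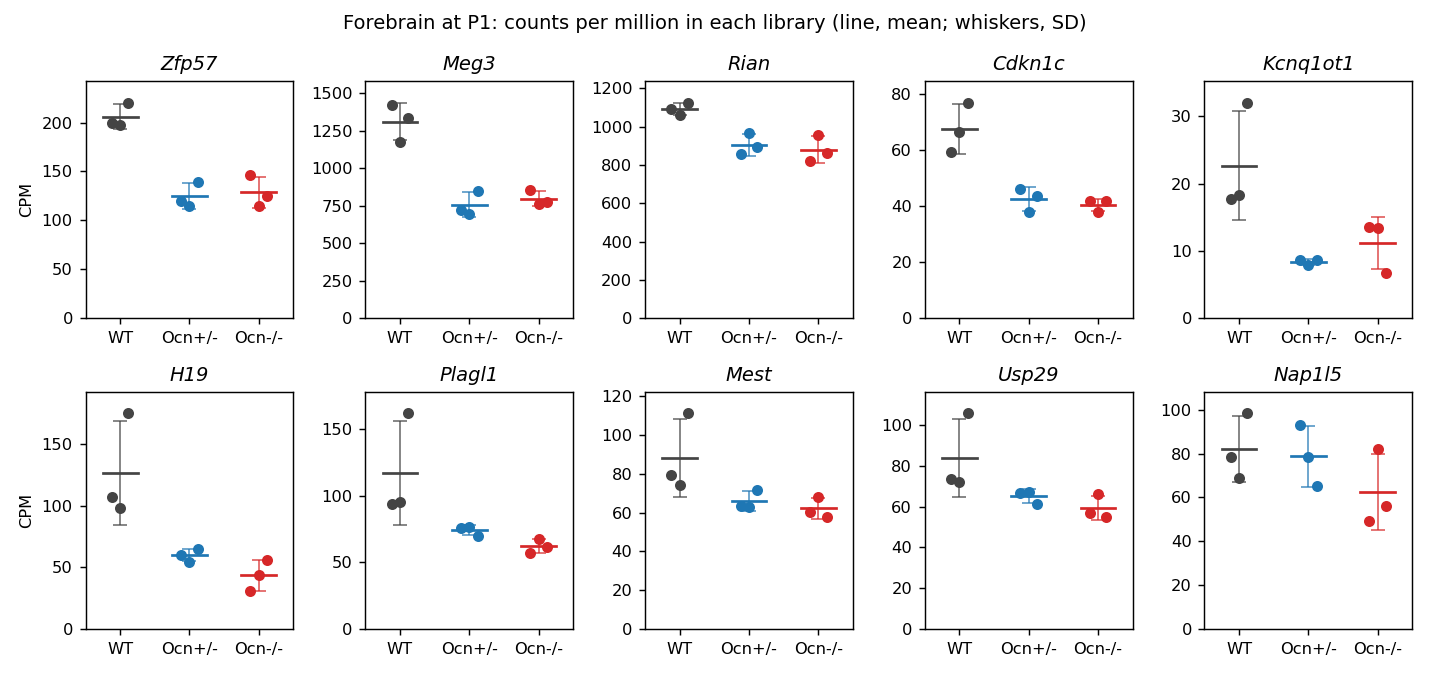
CPM (y axis, from 0) in each forebrain library for the 9 imprinted genes called in forebrain and for Nap1l5, by genotype (x axis), with lines at the mean and whiskers of 1 SD. The third WT library is the highest of its group for every gene shown but Meg3, and Nap1l5 overlaps between genotypes.

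Of the clusters not yet described in forebrain, none held a call, and in the Peg3 cluster Usp29 alone was called. In the Snrpn-Ube3a cluster the medians were 0.12 in Ocn+/- and -0.04 in Ocn-/- (0.10 and 0.05 without the third WT library), with Snrpn at 0.13 ± 0.08 and 0.09 ± 0.08, Ndn at 0.21 ± 0.08 and 0.09 ± 0.08, Ube3a at -0.15 ± 0.22 and -0.05 ± 0.22, Magel2 at 0.11 ± 0.28 and -0.07 ± 0.28, Mkrn3 at 0.16 ± 0.15 and -0.03 ± 0.15 and Peg12 at -0.55 ± 0.27 and -0.29 ± 0.27. Snhg14, the long RNA that runs from this locus across Ube3a and is not among the 45, was called lower, at -1.06 ± 0.14 (adjusted p = 0.00077) and -0.94 ± 0.14 (adjusted p = 0.00175). It was at -0.88 (adjusted p = 0.000814) and -0.76 (adjusted p = 0.00339) without the third WT library. Peg3 was at -0.28 ± 0.24 and -0.32 ± 0.24 and Zim1 at -0.25 ± 0.17 and -0.32 ± 0.17. In the Peg10-Sgce cluster Peg10 was at -0.25 ± 0.31 and -0.59 ± 0.32, and at 0.08 and -0.27 without the third WT library, while Sgce was at 0.13 ± 0.12 and 0.25 ± 0.12, Ppp1r9a at -0.13 ± 0.08 and -0.17 ± 0.08, Asb4 at -0.47 ± 0.66 and -0.90 ± 0.68 and Calcr at 0.80 ± 0.87 and -0.78 ± 0.95. Igf2r was at -0.26 ± 0.10 and -0.14 ± 0.10 and Airn at -1.16 ± 0.44 and -0.08 ± 0.41. Peg13 was at 0.04 ± 0.07 and -0.11 ± 0.07, Kcnk9 at -0.04 ± 0.12 and -0.12 ± 0.12 and Trappc9 at 0.19 ± 0.10 and 0.16 ± 0.10, the last above WT in every mutant by a small margin (54.6 to 56.1 CPM in WT, 57.8 to 66.6 CPM in Ocn+/- and 57.3 to 67.5 CPM in Ocn-/-). Nnat was at -0.05 ± 0.09 and -0.12 ± 0.09 and Blcap at 0.03 ± 0.09 and -0.05 ± 0.09.

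Of the genes with loci of their own that fell in testes, none but Mest and Zfp57 was called in forebrain. Nap1l5 was at 78.4, 69 and 98.4 CPM in the WT libraries, 93, 78.3 and 65.2 CPM in Ocn+/- and 49.1, 82.3 and 56.1 CPM in Ocn-/-. WT and mutants overlapped (-0.05 ± 0.22, adjusted p = 0.931, in Ocn+/- and -0.38 ± 0.22, adjusted p = 0.368, in Ocn-/-). Zdbf2 was at -0.35 ± 0.45 and -0.14 ± 0.45, Impact at 0.24 ± 0.13 and 0.00 ± 0.13 and Slc38a4 at 0.14 ± 0.30 and 0.07 ± 0.30, and mutants overlapped with WT for each. Grb10 was at -0.20 ± 0.10 and -0.24 ± 0.10, Gnas at -0.04 ± 0.07 and -0.11 ± 0.07 and Rasgrf1 at 0.42 ± 0.15 and 0.38 ± 0.15.

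Values of other long nuclear RNAs are set beside those of Meg3 and Kcnq1ot1. In mutant forebrain Malat1, an abundant nuclear long RNA, was called lower, at -1.88 ± 0.27 (adjusted p = 0.0183) and -1.69 ± 0.27 (adjusted p = 0.0222). Neat1, the scaffold RNA of paraspeckles, was not called, at -0.25 ± 0.23 (adjusted p = 0.576) and -0.44 ± 0.23 (adjusted p = 0.266). The 293 tested genes that the annotation lists as TEC, transcripts still to be experimentally checked and often unspliced, moved in mutant forebrain by a median of -0.45 (Ocn+/-) and -0.43 (Ocn-/-) on the log2 scale. Of these, 31 and 28 were called lower (10.6% and 9.56%, against 2.68% and 3.05% of all genes) and 0 higher. In testes the medians of 257 such genes were -0.04 and -0.07, with 3 lower and 1 higher in Ocn+/- and 5 lower and 2 higher in Ocn-/-. With the third WT library left out, Malat1 was at -1.56 (adjusted p = 8.75e-05) and -1.36 (adjusted p = 0.000327), Neat1 at -0.10 (adjusted p = 0.894) and -0.29 (adjusted p = 0.612) and the TEC genes at medians of -0.40 and -0.33. Then 6 and 11 of 323 TEC genes were called lower (1.86% and 3.41%, against 0.907% and 0.901% of all genes). These RNAs were chosen after their values were seen, and the part of RNA handling or unspliced RNA in the falls of the long non-coding RNAs was not tested. Among cell type markers of forebrain, the summed level of 6 forebrain markers was 1610.1 to 2095 CPM in WT, 1234 to 1529 CPM in Ocn+/- and 1257 to 1476 CPM in Ocn-/-. The sum of 7 erythroid markers was 523 to 723 CPM in WT, 357 to 408 CPM in Ocn+/- and 487 to 599 CPM in Ocn-/-. Of the 6 tested, 3 and 1 were called lower in Ocn+/- and Ocn-/-. The sum of 5 olfactory bulb markers was 30.2 to 35.2 CPM in WT, 101 to 129.8 CPM in Ocn+/- and 24.4 to 83.4 CPM in Ocn-/-. The sum of 5 astrocyte and radial glia markers was 721 to 823 CPM in WT, 919.7 to 953 CPM in Ocn+/- and 793 to 1062 CPM in Ocn-/-. The 7 choroid plexus markers summed to 590.1 to 755 CPM in WT, 588 to 877 CPM in Ocn+/- and 330.1 to 543 CPM in Ocn-/-, Ocn-/- lying below WT. Their median was -0.52 in Ocn-/-, where Aqp1, a water channel gene, was called lower. The 8 hypothalamus markers summed to 11.3 to 25.1 CPM in WT, 10.4 to 24.6 CPM in Ocn+/- and 5.51 to 12.4 CPM in Ocn-/-. The 4 tested had a median of -1.06 in Ocn-/- with 0 called. The 7 markers of fibroblasts and meninges summed to 410.1 to 459 CPM in WT, 366 to 441 CPM in Ocn+/- and 281 to 475 CPM in Ocn-/-. Their median was -0.34 in Ocn-/- with 0 called. The 6 endothelial markers summed to 162 to 185 CPM in WT, 143 to 172 CPM in Ocn+/- and 136 to 192 CPM in Ocn-/-, with Pecam1 and Kdr called lower in Ocn+/- and Kdr in Ocn-/-. The 4 pericyte markers summed to 159 to 200.3 CPM in WT, 140.0 to 191 CPM in Ocn+/- and 149.7 to 170.1 CPM in Ocn-/-, with Abcc9 called lower in both genotypes. The mutants overlapped with WT in both lists. Without the third WT library none of these endothelial, pericyte and choroid plexus markers was called, 2 and 0 erythroid markers were, and the Ocn-/- medians were -0.53 for choroid plexus, -0.62 for hypothalamus and -0.29 for fibroblasts and meninges. None of these markers was at 0 in all forebrains, and their part in the results was not tested.

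The change in mutants against WT differed between the organs for 2 of 44 imprinted genes (2.96% of all genes were called in this test of the interaction). For Nap1l5 the change in forebrain minus that in testes was 2.32 ± 0.37 (edgeR adjusted p = 0.00304), and for Rian 0.50 ± 0.14 (adjusted p = 0.0446). The first held with any library left out, and the second was lost with 14 of the 17 libraries left out in turn. Other genes called in testes and not in forebrain did not pass this test after adjustment, such as Zdbf2 (1.25, 95% interval 0.25 to 2.25), Peg10 (0.63, -0.07 to 1.33) and Impact (0.59, 0.24 to 0.94). Nor did Meg3 (-0.35, -0.78 to 0.08) or Cdkn1c (-0.04, -0.81 to 0.73), which were called in forebrain and not in testes.

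Ocn-/- and Ocn+/- pups, which had mothers of the same genotype, were compared directly. No imprinted gene was called by edgeR in either organ, where 0.0% of all genes were called in testes and 0.00622% in forebrain. At an unadjusted p under 0.05 there were 12 imprinted genes of 41 in testes, where 11.5% of all genes were, and 2 of 43 in forebrain (Dlk1 and Airn), where 3.2% were. DESeq2 called Dlk1, lower, and Ube3a, higher, in Ocn-/- testes (0.465% of all genes) and 0 in forebrain (0.0311%). The intervals stayed wide for single genes: the difference of Ocn-/- from Ocn+/- in testes was 1.00 (95% interval 0.15 to 1.86) for Nap1l5, 0.46 (0.18 to 0.73) for Peg10 and -0.47 (-0.80 to -0.14) for Igf2. In forebrain it was 0.04 (-0.16 to 0.24) for Zfp57 and 0.08 (-0.11 to 0.27) for Meg3.

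Calls were found among genes known to be transcribed mainly from either parental copy, although the libraries do not separate the copies. Among genes transcribed mainly from the father's copy, 4 and 8 of 24 tested were called lower in Ocn+/- and Ocn-/- testes and 1 and 3 of 24 in forebrain. Among those of the mother's copy, 1 and 2 of 14 were called lower in testes and 2 and 4 of 16 in forebrain. Of all genes 4.36%, 3.09%, 2.68% and 3.05% were called lower in these 4 comparisons, so the lowest of these counts, 1 of 24 (4.17%) and 1 of 14 (7.14%), are near the share of all genes. The medians of the father's genes were -0.29, -0.42, -0.10 and -0.13 in the same order, and those of the mother's genes -0.22, -0.48, -0.23 and -0.28. Without the third WT forebrain the forebrain medians were 0.02 and -0.09 for the father's genes, with 1 and 1 called lower. For the mother's genes they were -0.15 and -0.26, with 2 and 3. In these fits 0.907% and 0.901% of all genes were called lower. Begain, Gnas and Zfp57 were put in neither group.

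Of the genes that set or keep imprints, 25 were listed beside the 45. In Ocn+/- testes, 4 of 22 tested were higher and 1 was lower, and in Ocn-/- testes 2 were higher and 0 lower, where 3.89% and 2.54% of all genes were higher and 4.36% and 3.09% lower. Uhrf1, which leads the methylation enzyme to newly copied DNA, was higher by 0.72 ± 0.13 (adjusted p = 0.00555) and 0.66 ± 0.13 (adjusted p = 0.0095), and Hells, a chromatin remodeller of DNA methylation, by 0.59 ± 0.14 (adjusted p = 0.0209) and 0.89 ± 0.14 (adjusted p = 0.00215). Kdm1b, a histone demethylase needed to set maternal imprints, was lower in Ocn+/- testes (-0.66 ± 0.16, adjusted p = 0.0204). Trim28, the partner of ZFP57, was at 0.32 ± 0.13 (adjusted p = 0.119) and 0.12 ± 0.13 (adjusted p = 0.625) in testes and -0.09 ± 0.08 (adjusted p = 0.554) and -0.07 ± 0.08 (adjusted p = 0.624) in forebrain, not called. In forebrain Tet2, an enzyme that oxidizes methylated DNA, was lower in Ocn+/- (-0.47 ± 0.13, adjusted p = 0.0485), while Dnmt3a, which sets new methylation, and Arid4a were higher in Ocn-/- (0.42 ± 0.10, adjusted p = 0.0226, and 0.62 ± 0.17, adjusted p = 0.0397). These calls in forebrain were lost without the third WT library. A further 30 genes were listed as neighbours in the imprinted clusters. They were not sorted by whether they are imprinted themselves, so they are no contrast of genes without imprinting. Of these, 22 were tested in testes and 23 in forebrain. Only H13, a signal peptide peptidase gene, was called, higher in Ocn+/- testes (0.46 ± 0.13, adjusted p = 0.0393). That share of 4.55% is near that of all genes. The medians of the neighbours were -0.07, -0.04, 0.05 and 0.01 in the 4 comparisons.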

How the data were processed

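RNA of testes and forebrain was sequenced with 2 or 3 libraries per genotype, grouped by the labels. Per the labels and the submitters' processing notes, the authors trimmed reads with Trim Galore 0.6.6, aligned them with STAR 2.7.8a to GRCm39 and deposited the expected counts per gene that RSEM 1.3.3 gives. How strand was counted is not given in the sources used here, so a gene and an overlapping antisense partner cannot be told apart. Of 55359 genes, 32846 had a count, and expected counts that were not whole were rounded.

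The main test was edgeR 4.0.16 (R 4.3.3), quasi-likelihood and robust, after filterByExpr and TMM scaling, over 16361 genes in testes, 16076 in forebrain and 17800 in a joint fit of 17 libraries, used for the organ difference in WT and for the difference of the mutant change (the mean of Ocn+/- and Ocn-/-) between organs. Each organ was fitted with its 3 genotypes. P-values were adjusted by Benjamini-Hochberg over all genes tested, a call is an adjusted p under 0.05, and ± is the SE of the log2 fold change, taken as its size over the square root of F. Intervals use the t distribution on the degrees of freedom of the fit. Alternatives were other scalings, filters, DESeq2 1.42.0, a likelihood ratio test, fits of the compared groups alone, a replicate block and each library left out. The marker, imprint-keeping and neighbour lists and the 45 members were chosen with earlier results of these data known. All 45 are accounted for, and values in every library are given for those called against WT in an organ. Between organs the 3 largest changes each way are named, and of other lists the 2 smallest p in each direction among those called. Values per library of Sgce and of called genes in the other organ, the overlapping or adjacent genes, Snhg14 and Trim28 were added after values were seen. Exon lengths, overlaps and positions are from GENCODE vM39 (GRCm39). Counts set the precision, which intervals cover only as spread between libraries.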

Additional observations from a re-analysis of the deposited data

Results flagged for a closer look

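The change in mutants against WT, averaged over Ocn+/- and Ocn-/-, differed between the organs for 2 imprinted genes by edgeR's test of the difference itself. For Nap1l5, forebrain minus testes was 2.32 on the log2 scale (adjusted p = 0.00304), and the adjusted p stayed between 6.34e-20 and 0.0437 over the alternatives tried. All 6 mutant testes were below both WT testes, whereas the mutant forebrains overlapped with WT. For Rian it was 0.50 (adjusted p = 0.0446), with a range from 0.00523 to 0.287. Mutants were below WT in both organs, by more in testes. The cause of either difference was not tested.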

How the results depend on the processing

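The count of imprinted genes called in Ocn-/- testes against WT was 17 without a filter on low counts. In Ocn+/- forebrain it was 8 with DESeq2, 9 without the filter and 7 with the likelihood ratio test, and in Ocn-/- forebrain 5 when only the compared groups were fitted. Between Ocn-/- and Ocn+/-, 2 were called in testes with DESeq2 and 5 without the filter, and 1 in forebrain without the filter. For the difference between organs it was 1 with upper quartile scaling, 5 with DESeq2, 4 without the filter and 5 with the likelihood ratio test. With each library left out in turn, the counts ran from 3 to 11 in Ocn+/- testes, 3 to 14 in Ocn-/- testes, 3 to 5 in Ocn+/- forebrain, 4 to 7 in Ocn-/- forebrain, 1 to 4 for the difference between organs and 36 to 39 between WT organs. The testis counts fell to 3 in both genotypes without the second WT library, and to 4 and 5 without the first. Same-numbered libraries did not deviate together (correlations from -0.07 to 0.22 over 9 pairs in forebrain and -0.11 to 0.12 over 7 pairs in testes), so the numbers were not taken to pair samples, and a replicate block gave 5 and 9 calls in testes, 5 and 8 in forebrain, 0 in both comparisons of Ocn-/- with Ocn+/-, 2 between organs and 37 between WT organs. Over all imprinted genes and the 4 comparisons of mutants with WT, the 66 refits ended 76 calls (13 and 26 in Ocn+/- and Ocn-/- testes, 4 and 33 in forebrain) and added 82 (24, 19, 21 and 18 in the same order), and no value called before or after changed its sign. The causes were not tested, and the shares of all genes called in these refits are not given here. The 2 WT testes limit the testis comparisons with WT. Precision differed between genes, and Calcr in forebrain, which has few counts, is among the least precise.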

Other observations

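Plagl1 is known as a hub of a network of imprinted genes that are expressed together in growing tissues, and 14 of the 45 genes were listed as its members, Plagl1 included. Of these, 11 and 13 had a log2 fold change below 0 in Ocn+/- and Ocn-/- testes and 12 and 12 in forebrain, with medians of -0.20, -0.42, -0.27 and -0.33. Called lower were 1, 2, 2 and 5 in the same order, where 4.36%, 3.09%, 2.68% and 3.05% of all genes were. The shares in testes, 7.14% and 14.3%, lie below the 14.6% and 26.8% of all imprinted genes tested, and those in forebrain, 14.3% and 35.7%, above the 9.3% and 18.6%. Without the third WT forebrain the forebrain medians were -0.17 and -0.20, with 2 and 4 called lower. These are 14.3% and 28.6% of the 14, beside 9.3% and 11.6% of all imprinted genes and 0.907% and 0.901% of all genes. The 5 of Ocn-/- forebrain were Plagl1, H19, Cdkn1c, Meg3 and Mest. The list overlaps with the clusters described above and was chosen with earlier results of these data known, so it is no separate evidence.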
